A study of Mus musculus with 4 samples.

Results

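Klk6, Ptgds, Il33, Apod, Car2, Hapln2 and Anxa5 are 7 genes known to differ among subtypes of mature oligodendrocytes, the myelinating cells of the central nervous system. The 7 were listed by name, and all 7 were among the 31557 gene symbols measured. They were described in nestin-GFP-positive cells sorted one per well from the dentate gyrus of 8 male nestin-GFP mice, in which the nestin promoter drives GFP in neural stem cells and in some glial and vascular cells. Each mouse gave 1 whole dentate gyrus of both hemispheres. Antagomir mice (4) received miR-132 antagomir, an LNA- and cholesterol-modified oligonucleotide that blocks the microRNA miR-132, as 2 ul at 0.33 nmol/ml infused into the cerebral ventricle at 2 months of age. Scrambled mice (4) received a scrambled LNA oligonucleotide, and antagomir mice were analysed at 3 months of age. The cDNA of every well was made by Smart-seq2, which copies polyadenylated RNA and attaches no molecular tags, which makes each count a sequenced read. Libraries were sequenced in 2 pools, L6 (4 mice) and L5 (4 mice), and each pool held 2 mice of each treatment.

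Of 768 wells, 716 had 500 to 6000 detected genes and were kept. Oligodendrocyte wells (298) were those with at least 3 of the myelin genes Mog, Mag, Ermn, Mal and Ugt8a at 10 or more counts, and the remaining 418 are called other wells. Most wells stood at 1 of the extremes, with all 5 markers in 293 wells and 0 in 370. Near the threshold, 2 wells had 3 markers and 1 well had 2. Among the other wells, 203 carried at least 3 of 5 markers of astrocytes or radial glia, 86 of endothelial cells, 82 of mural cells, 30 of neuroblasts, 18 of mature neurons, 12 of fibroblasts, 5 of oligodendrocyte precursors and 2 of microglia, and 13 carried none of these sets; a well could carry more than 1 set. Of the 298 oligodendrocyte wells, 8 also carried markers of another class, 6 of them of astrocytes or radial glia, 1 of microglia and 1 of oligodendrocyte precursors. The median well held 834262 counts in oligodendrocyte wells and 556720 in other wells. Summed per mouse, the kept wells held 43996495 to 69191485 counts. The mouse was the replicate throughout. With 1 cell per well, fewer RNA molecules and poorer capture cannot be told apart. Intervals given for shares are 95% Wilson intervals and cover counting error only.

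Oligodendrocytes wrap axons in myelin, and mature ones fall into subtypes that share the myelin programme but differ in a small set of secreted, lipid-handling and metabolic genes. Ptgds makes prostaglandin D2 and also acts as a lipid carrier of the lipocalin family, to which Apod, an apolipoprotein, belongs too. Klk6 is a secreted serine protease able to cut myelin proteins, and Il33 is a nuclear cytokine released from damaged cells. Car2 is the cytosolic carbonic anhydrase of oligodendrocytes, Hapln2 is a link protein of the matrix at nodes of Ranvier, and Anxa5 is a calcium-dependent protein that binds phosphatidylserine.

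The 7 genes lie on 5 chromosomes of build GRCm38, with positions, exonic lengths and identifiers from GENCODE M21 matched by symbol. Klk6 (ENSMUSG00000050063.18) spans chr7:43824499-43832030 on the plus strand and has 1513 exonic bases. Ptgds (ENSMUSG00000015090.13) spans chr2:25466709-25470046 on the minus strand with 1649 exonic bases. Il33 (ENSMUSG00000024810.16) spans chr19:29925114-29960718 on the plus strand with 2886, and Apod (ENSMUSG00000022548.14) chr16:31296192-31314808 on the minus strand with 2577. Chromosome 3 holds Car2 (ENSMUSG00000027562.12) at chr3:14886273-14900770, plus strand, with 2422 exonic bases, Hapln2 (ENSMUSG00000004894.10) at chr3:88021750-88027583, minus strand, with 2371, and Anxa5 (ENSMUSG00000027712.13) at chr3:36448923-36475894, minus strand, with 1777. The deposited counts give 1 value per gene symbol, so exons and UTRs are not told apart. Anxa5 overlaps the microRNA gene Mir7009 in this annotation, and the reads of the pair were not separated here.

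The promoters of Klk6, Ptgds and Hapln2 are shown because much of what follows concerns these 3 genes. Klk6 and Hapln2 had 10 or more counts in oligodendrocyte wells alone, and Ptgds was the most abundant member. The sequences run 5′ to 3′ on the gene's strand, from 250 bases before the annotated start to 50 bases after it, and come from RefSeq on build GRCm38.p6; 6 of the 7 members had an entry, and Car2 had none. Capitals mark matches to ACAAAG or its reverse complement CTTTGT, a core bound by SOX factors such as the oligodendrocyte factor Sox10, and to the E-box CAGCTG, bound by basic helix-loop-helix factors. Both strands were searched and the 2 motifs do not overlap.
Klk6 start 1 (chr7:43824294-43824593, plus strand): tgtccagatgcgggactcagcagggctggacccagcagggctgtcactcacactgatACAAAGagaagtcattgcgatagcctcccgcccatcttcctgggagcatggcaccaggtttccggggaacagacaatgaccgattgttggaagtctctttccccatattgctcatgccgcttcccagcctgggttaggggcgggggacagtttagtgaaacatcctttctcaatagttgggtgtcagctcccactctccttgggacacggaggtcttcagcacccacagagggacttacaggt
Klk6 start 2 (chr7:43825200-43825499, plus strand): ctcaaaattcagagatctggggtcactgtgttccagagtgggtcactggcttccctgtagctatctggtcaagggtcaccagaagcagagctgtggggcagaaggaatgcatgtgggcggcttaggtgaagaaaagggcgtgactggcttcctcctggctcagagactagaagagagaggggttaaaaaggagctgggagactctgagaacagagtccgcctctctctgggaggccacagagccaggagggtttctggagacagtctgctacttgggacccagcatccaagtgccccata
Ptgds (chr2:25469700-25469999, minus strand): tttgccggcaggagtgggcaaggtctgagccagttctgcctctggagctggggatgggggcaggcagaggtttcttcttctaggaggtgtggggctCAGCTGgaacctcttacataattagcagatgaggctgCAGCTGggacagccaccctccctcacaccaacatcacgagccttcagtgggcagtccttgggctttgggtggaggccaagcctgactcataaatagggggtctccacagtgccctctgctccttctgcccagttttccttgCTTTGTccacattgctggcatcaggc
Hapln2 (chr3:88027462-88027761, minus strand): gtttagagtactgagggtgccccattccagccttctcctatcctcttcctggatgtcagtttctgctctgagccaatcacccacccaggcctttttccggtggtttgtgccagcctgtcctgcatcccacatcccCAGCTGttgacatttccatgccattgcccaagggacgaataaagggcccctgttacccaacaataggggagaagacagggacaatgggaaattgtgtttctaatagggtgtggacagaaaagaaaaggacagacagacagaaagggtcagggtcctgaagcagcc
The SOX core stood once upstream of the first Klk6 start, once in Ptgds and once in Apod, and the E-box stood in 2 places in Ptgds and in 1 each in Hapln2, Apod and the first Il33 start. Neither stood in the second Klk6 start, the second Il33 start or Anxa5. Of 32544 promoters of this length, 18.7% held the SOX core and 16.4% held the E-box, so these matches are common ones and describe letters in a window only.

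Within oligodendrocyte wells the 7 genes fell into 3 tiers of detection. Car2 and Apod had 10 or more counts in 297 of 298 wells each (99.7%), Ptgds in 293 (98.3%), Il33 in 290 (97.3%) and Hapln2 in 266 (89.3%, interval 85.2 to 92.3%). Anxa5 was present in 55 wells (18.5%, interval 14.5 to 23.3%) and Klk6 in 21 (7.05%, interval 4.66 to 10.5%). The near-universal genes were thus detected together: 200 wells (67.1%) held Ptgds, Il33, Apod, Car2 and Hapln2 without Klk6 and Anxa5, 41 held these 5 with Anxa5, and 29 held Ptgds, Il33, Apod and Car2 alone. Only 5 wells held all 7. Among the 8 oligodendrocyte wells with markers of another class, 1 held Anxa5 and 1 held Klk6, and in the 290 without such markers Anxa5 was present in 54 (18.6%) and Klk6 in 20 (6.90%). The number of members per well was 5 in 205 wells (68.8%), 6 in 55, 4 in 32, 7 in 5 and 1 in 1 well.

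**Figure D1:**
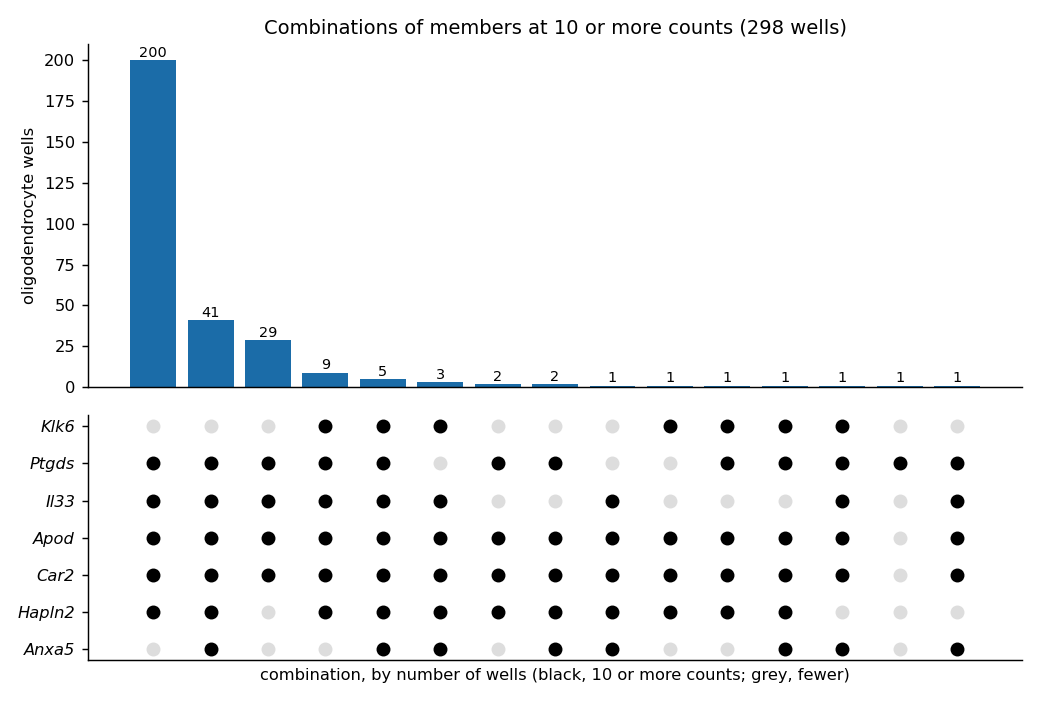
Number of oligodendrocyte wells (y axis, 298 in all) with each of the 15 combinations of members found at 10 or more counts; the dots below each bar show which members were present (black) or not (grey). The combination of Ptgds, Il33, Apod, Car2 and Hapln2 takes 200 wells, and Klk6 appears in 21 wells spread over 7 combinations.

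Levels per length put Ptgds far above the rest. Per kilobase of exon, the mean level over 8 mice in oligodendrocyte wells was 17992 ± 4122 CPM per kb for Ptgds (CPM, the count scaled to a fixed library total; SD), 2367 ± 549 for Apod, 2265 ± 286 for Car2, 485 ± 70.2 for Il33, 288 ± 79.6 for Hapln2, 33.4 ± 17.7 for Anxa5 and 21.1 ± 15.1 for Klk6. Apod and Car2 differed by less than their spread, as did Anxa5 and Klk6. Among the wells, the 90th percentile of Ptgds CPM was 7.15 times the 10th, against 7.51 times for Il33, 4.13 for Apod and 3.14 for Car2, so Car2 was the most even of these 4. Hapln2 was the most uneven of the 5 frequent members, with a median of 521 CPM per well, a highest value of 2645 CPM and a 10th percentile of 3.37 CPM.

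The rare Klk6 wells were found in 7 of 8 mice. Antagomir mice had Klk6 at 10 or more counts in 4.17, 9.30, 10.3 and 15.6% of their oligodendrocyte wells, and scrambled mice in 0, 4.65, 6.45 and 6.67%. The groups overlapped, and shares of wells were not tested. In the 21 wells Klk6 ran from 125 to 4009 CPM with a median of 303 CPM, and in the remaining oligodendrocyte wells it did not pass 2.06 CPM, so detection was close to all or none: only 1 further oligodendrocyte well had 1 to 9 counts.

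The other members were then set side by side in wells with and without Klk6. Ptgds had 10 or more counts in 17 of 21 wells with Klk6 (81.0%, interval 60.0 to 92.3%) and in 276 of 277 wells without it (99.6%, interval 98.0 to 99.9%); 4 of the 5 oligodendrocyte wells that lacked Ptgds were wells with Klk6. The 4 held 0, 0, 1 and 2 Ptgds counts among 752852 to 1241406 counts in all. These 4 wells came from mouse 2 (antagomir) and mouse 3 (scrambled), 2 from each. Anxa5 was present in 10 of 21 wells with Klk6 (47.6%, interval 28.3 to 67.6%) and in 45 of 277 without (16.2%, interval 12.4 to 21.05%), with a higher share in the wells with Klk6 in 5 of 7 mice. Il33 was present in 18 of 21 and 272 of 277 wells, and Hapln2 in 20 of 21 and 246 of 277. The median total was 752852 counts in wells with Klk6 and 842219 in wells without.

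The median Ptgds level was lower in the wells with Klk6 in each of the 7 mice. Over all wells it was 13054 CPM with Klk6 and 27568 CPM without. By mouse, the median with Klk6 and without it was 13937 and 28559 CPM in mouse 1, 3935 and 25240 in mouse 2, 1.61 and 27562 in mouse 3, 13054 and 21549 in mouse 4, 34050 and 39050 in mouse 6, 7717 and 26279 in mouse 7, and 14070 and 26338 in mouse 8. Mice 3 and 2 stood lowest and the 2 medians were closest in mouse 6; mouse 4 had 1 well with Klk6 and mouse 5 had 0. Apod had a median of 7455 CPM in wells with Klk6 and 5351 CPM in wells without.

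**Figure D2:**
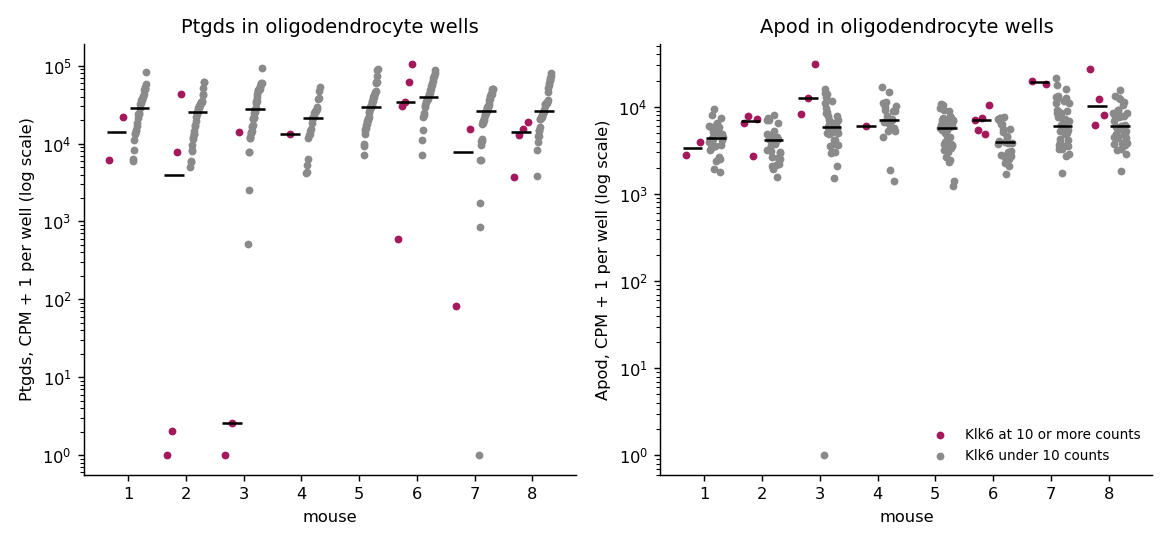
Ptgds (left) and Apod (right) in each oligodendrocyte well, as CPM + 1 on a log scale, by mouse; for each mouse the wells with 10 or more Klk6 counts stand left of the wells under 10 counts, and black lines are medians. The Ptgds median is lower in the wells with Klk6 in all 7 mice that had any, and 4 of the 21 wells with Klk6 lie near the bottom of the Ptgds axis.

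The test was set for at least 4 mice with 5 or more wells on each side, which neither Klk6 nor Hapln2 reached at 10 counts, so both were tested in mice with at least 2 wells a side, a limit chosen after the data had been seen. Summed per mouse, in the 6 mice that met it for Klk6, Ptgds averaged 16329 ± 16589 CPM in wells with Klk6 and 31596 ± 5950 CPM in wells without (SD), and was lower in 5 of 6 mice. Apod averaged 10915 ± 6205 and 5441 ± 1093 CPM, and was higher in 5 of 6 mice. Neither passed the quasi-likelihood test of edgeR, in which p-values were adjusted after Benjamini and Hochberg over 8512 genes. Ptgds had a log2 difference of -1.70 ± 0.34 (SE, edgeR adjusted p = 0.13) and Apod one of 0.56 ± 0.23 (adjusted p = 0.21). In this comparison 0 genes passed (0% called), 1571 had an unadjusted p under 0.05 and 1562 of these were lower with Klk6. The median log2 difference of all genes was -2.08, and the 2 to 5 wells with Klk6 per mouse stood against 27 to 42 without. The fitted value of Ptgds was thus smaller in size than that median. Ptgds was the 1 gene called when all wells were thinned to 200000 counts (-1.61, adjusted p = 0.035 by edgeR) and when mouse 6 was left out (-2.05, adjusted p = 0.026 by edgeR). The median log2 difference of all genes was -1.58 in the thinned fit and -2.29 without mouse 6. In these 2 fits too, the Ptgds value was close to that of the median gene or smaller in size.

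Anxa5 was present in 8.33, 20.9, 25.6 and 28.1% of the oligodendrocyte wells of antagomir mice and in 11.6, 12.2, 15.6 and 25.8% of those of scrambled mice, which overlapped. Hapln2 was present in 53 of 55 wells with Anxa5 (96.4%) and in 213 of 243 without (87.7%), and its median level was 850 CPM with Anxa5 and 460 CPM without. Summed per mouse in the 7 mice with at least 5 wells a side, Hapln2 averaged 890 ± 232 CPM with Anxa5 and 666 ± 160 CPM without (SD), and was higher with Anxa5 in 7 of 7 mice. Its log2 difference of 0.32 ± 0.10 (SE) did not pass edgeR's test (adjusted p = 0.49 over 8927 genes), nor did that of Ptgds, -0.38 ± 0.11 (adjusted p = 0.38). In this comparison 0 genes passed (0% called), 673 had an unadjusted p under 0.05, and the median log2 difference of all genes was -0.68.

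The 32 oligodendrocyte wells without Hapln2 were shallower, with a median of 842122 counts in wells with Hapln2 and 552665 in wells without. After thinning to 200000 counts, Hapln2 was present in 259 of 294 wells (88.1%). Anxa5 was present in 53 of 266 wells with Hapln2 (19.9%) and in 2 of 32 without (6.25%). Apod averaged 6546 ± 1530 CPM in wells with Hapln2 and 4476 ± 1146 CPM in wells without (SD, 7 mice with at least 2 wells a side), higher in 7 of 7 mice, with 4519 and 2891 CPM in mouse 2, 7338 and 3398 in mouse 3, 8618 and 6036 in mouse 4, 5656 and 5150 in mouse 5, 5000 and 4625 in mouse 6, 7869 and 3823 in mouse 7, and 6820 and 5411 in mouse 8. Mice 3 and 7 showed the widest gaps and mouse 6 the narrowest. Apod passed edgeR's test with a log2 difference of 0.73 ± 0.11 (SE, adjusted p = 0.042), as did Aplp1, an amyloid precursor-like gene named after its value had been seen (0.58 ± 0.08, adjusted p = 0.042). In all, 3 genes of 8516 were called (0.0352%), each higher with Hapln2, while the median log2 difference of all genes was 1.96 and 1697 genes had an unadjusted p under 0.05 in that direction. The log2 difference of Apod was below that median in this comparison, which set 3 to 7 wells without Hapln2 against 19 to 40 with it in each mouse. The Apod call was lost with RLE scaling (0.49, adjusted p = 0.092 by edgeR), at a threshold of 100 counts, and when mouse 2, 3, 4, 6 or 7 was left out (0.65 to 0.84, adjusted p = 0.066 to 0.16 by edgeR). With at least 5 wells a side, which 6 mice reached at 100 counts and 4 mice when wells were thinned to 200000 counts, edgeR called 0 genes both times (626 and 372 had an unadjusted p under 0.05).

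As a description over the oligodendrocyte wells of each mouse, Spearman's rho between log2(CPM + 1) values was averaged over mice. Cells of a mouse share their libraries and depth, so no p is given. Ptgds ran against Apod (mean rho -0.33, negative in 7 of 8 mice), Klk6 (-0.25, negative in 7 of 7) and Hapln2 (-0.19, negative in 7 of 8), and Apod ran with Hapln2 (0.30, positive in 8 of 8). The mean rho between Il33 and Car2 was 0.13, and with every other member each of these 2 genes had a mean rho of smaller size. Genes most like each member, among genes present in at least 10% of oligodendrocyte wells with one sign in every mouse and a mean rho of at least 0.3 in size, were few. For Ptgds they were Apoe (0.47), which carries lipids, and in the opposite direction Fth1 (-0.41), the heavy chain of the iron store ferritin, and Selenop (-0.38), a selenium carrier. For Apod they were Fth1 (0.47), Gng11 (0.39), a G protein gamma subunit, and Trf (0.38), which encodes the iron carrier transferrin. Pmp22, a myelin membrane gene, was named for Hapln2 (0.34) and for Klk6 (0.31), Klk6 also had Bsdc1 (0.32), and Il33, Car2 and Anxa5 had 0 such genes.

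Set against the other wells, the members split into genes nearly restricted to oligodendrocyte wells, genes shared with other cells and a gene that was lower. Of the 6 members tested, 5 were higher in oligodendrocyte wells (13.5% of 12181 genes were called higher) and 1, Anxa5, was lower (19.7% called lower). The wells had been split by myelin genes, and the members were listed as genes of mature oligodendrocytes. Higher levels were thus largely built into the comparison, and the 5 calls are not read as a separate result. Klk6 did not pass the filter on low counts and its counts are given without a test. Hapln2 passed that filter through the oligodendrocyte wells alone. The values that follow are CPM per mouse, and in brackets edgeR's log2 difference with its SE and adjusted p.

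Klk6 and Hapln2 were nearly restricted to oligodendrocyte wells. Klk6 had 7875 counts in oligodendrocyte wells and 1 count in the other wells. The ratio of CPM, 7687, rests on that 1 count. Of the 7875 reads, 2075 came from 1 well of mouse 3, and reads of a well are not independent, so no interval is given. By mouse, Klk6 in oligodendrocyte wells was 0, 13.9, 15.7, 24.1, 40.4, 43.7, 45.8 and 72.0 CPM, and in other wells it was 0 in 7 mice and 0.035 CPM in mouse 7; mouse 5 with 0 in both kinds of wells made the groups overlap. Hapln2 was 448 to 913 CPM in oligodendrocyte wells and 0 to 0.19 CPM in other wells. The ranges did not overlap (5.69% of genes did not overlap and were higher). Its log2 difference was 14.00 ± 0.80 (edgeR adjusted p = 4.5e-07), but Hapln2 passed the low-count filter through the oligodendrocyte wells alone. With 12 counts in all other wells, the difference and its SE rest on a level near 0, and the call adds no support. Both genes had 10 or more counts in 0 of 418 other wells, which allows a share of up to 0.718%.

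Ptgds, Il33 and Apod were higher in oligodendrocyte wells and were also abundant in a few other wells. Ptgds was 20872 to 43346 CPM in oligodendrocyte wells and 28.0 to 6296 CPM in other wells (7.38 ± 1.09, edgeR adjusted p = 0.00043). Apod was 4382 to 8154 CPM and 49.1 to 2541 CPM (2.87 ± 0.57, edgeR adjusted p = 0.0028). Il33 was 1025 to 1625 CPM and 0.26 to 98.1 CPM (6.52 ± 0.85, edgeR adjusted p = 0.00019). The ranges did not overlap for any of the 3. Among other wells, the 12 with fibroblast markers (Dcn, Lum, Col1a1, Col1a2 and Slc6a13) held 97.9% of the Ptgds counts and 95.2% of the Apod counts, against 3.62% of all counts. All 12 had both genes at 10 or more counts, and Apod averaged 48708 ± 27257 CPM there over 7 mice, above its level in oligodendrocyte wells. Of these 12 wells 8 also carried astrocyte or radial glia markers. Apod alone of the 3 was also detected in vascular wells. It had 10 or more counts in 25 of 86 endothelial-marker wells (29.1%) and 21 of 82 mural-marker wells (25.6%). Its medians in those positive wells were 444 and 569 CPM. Ptgds and Il33 reached 10 counts in 0 wells of either class. Without the fibroblast-marker wells, a comparison added after the data had been seen, the log2 difference of Ptgds was 10.59 and that of Apod 6.98. Both were still called.

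Car2 was shared with astrocytes and radial glia. It was 4868 to 6930 CPM in oligodendrocyte wells and 254 to 464 CPM in other wells (4.28 ± 0.17, edgeR adjusted p = 5.6e-08). It had 10 or more counts in 125 of 203 wells with astrocyte or radial glia markers (61.6%), 22 of 86 endothelial-marker wells (25.6%), 4 of 82 mural-marker wells (4.88%) and 0 of 12 fibroblast-marker wells. Il33 was likewise present in 19 of 203 astrocyte or radial glia wells (9.36%) and in 0 of 86 endothelial-marker and 0 of 82 mural-marker wells, which allow shares of up to 3.49 and 3.66%.

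Anxa5 ran the opposite way. It was 25.4 to 104 CPM in oligodendrocyte wells and 253 to 555 CPM in other wells (-2.78 ± 0.34, edgeR adjusted p = 0.00011), with no overlap (13.6% of genes did not overlap and were lower). Anxa5 was present in 206 of 418 other wells (49.3%), among them 51 of 86 endothelial-marker wells (59.3%), 53 of 82 mural-marker wells (64.6%) and 95 of 203 astrocyte or radial glia wells (46.8%), and in 3 of 30 neuroblast-marker wells (interval 3.46 to 25.6%).

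Low counts of Ptgds were widespread. Between 1 and 9 Ptgds counts were found in 168 of 418 other wells (40.2%), and at least 1 count stood in 39 of 86 endothelial-marker wells (45.3%), none of which reached 10. The median total of these endothelial-marker wells was 574702 counts. Shares at 1 or more counts were therefore not read as expression.

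**Figure D3:**
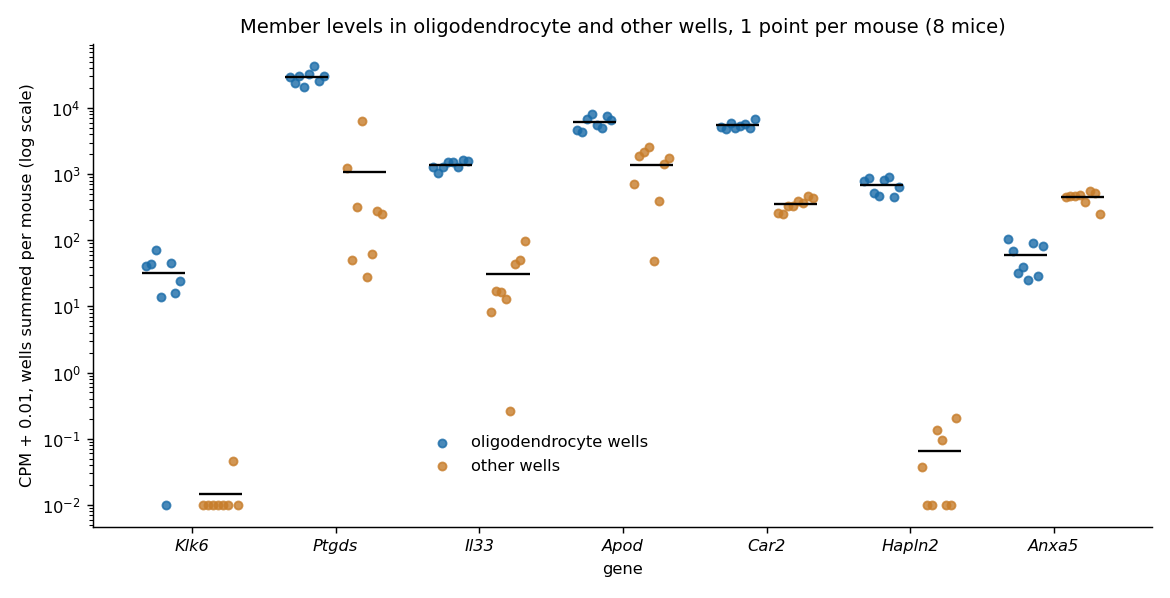
Level of each member as CPM + 0.01 on a log scale, summed per mouse, in oligodendrocyte wells (left, blue) and other wells (right, orange); points are the 8 mice and black lines their means, and points at 0.01 are mice with 0 counts. Hapln2 lies at 448 to 913 CPM in oligodendrocyte wells and at 0.19 CPM or less in other wells, and Anxa5 is the one member that is lower in oligodendrocyte wells.

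**Figure D4:**
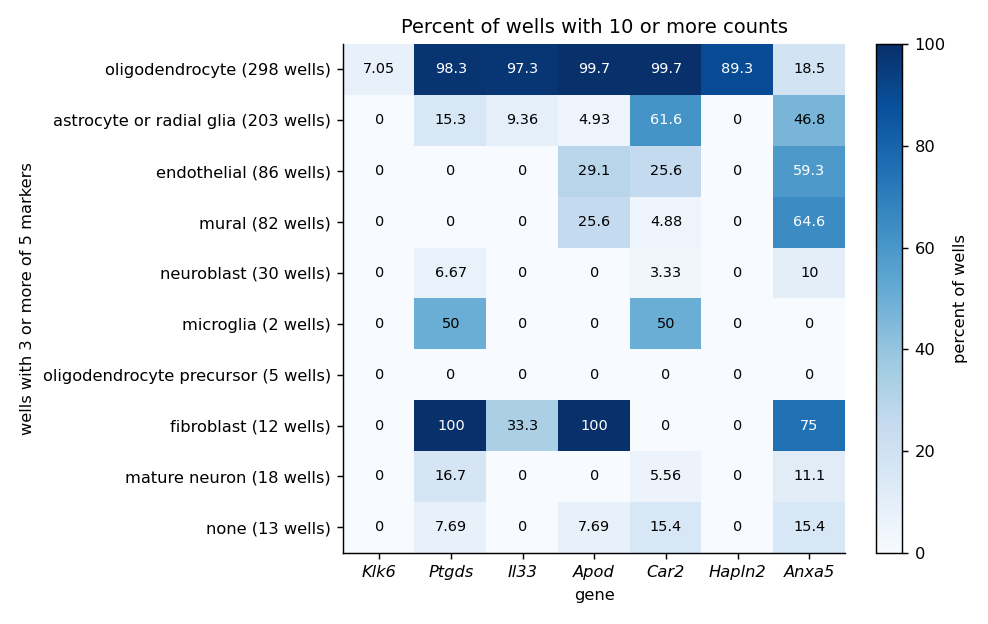
Percent of wells with 10 or more counts of each member (columns), by class of well with at least 3 of 5 markers (rows; wells that carry markers of oligodendrocytes are left out of the other rows). Klk6 and Hapln2 are at 0 outside the oligodendrocyte row, and Ptgds and Apod reach 100% in the 12 fibroblast-marker wells.

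The listed relatives of the members were compared between the same wells. Of 20 symbols of oligodendrocyte stage or subtype genes other than the members, 19 were tested. In oligodendrocyte wells 12 were higher and 3 were lower, beside 13.5% and 19.7% of all genes tested. The median log2 difference was 6.48, beside -0.22 for all genes tested. The list includes Cnp, a myelin enzyme, at 12287 ± 1652 CPM in oligodendrocyte wells and 128 ± 26.9 CPM in other wells (SD, 8 mice), Opalin at 1862 ± 451 and 0.27 ± 0.46 CPM, Gjb1, a gap junction gene, at 436 ± 51.4 and 0.097 ± 0.12 CPM, Gpr37 at 1540 ± 395 and 30.6 ± 16.7 CPM, Trf at 505 ± 55.8 and 7.54 ± 2.87 CPM, and Enpp6, a marker of newly forming oligodendrocytes, at 84.6 ± 56.4 and 0.011 ± 0.030 CPM. All 6 were called by edgeR. These 6 were named by p, and the 3 lower genes are not among them. The wells had been split by the myelin genes Mog, Mag, Ermn, Mal and Ugt8a. Higher levels of genes expressed with these were therefore built into the comparison. The 12 calls and the median are not read as a separate result. Opalin, Gjb1 and Enpp6 were almost absent from other wells, which gave their tests almost no counts on that side.

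Around Il33, its co-receptor Il1rap was higher, at 272 ± 26.7 CPM in oligodendrocyte wells and 14.7 ± 13.5 CPM in other wells (edgeR adjusted p = 0.0054), as was the adaptor Traf6, at 86.3 ± 39.2 and 23.5 ± 11.6 CPM (edgeR adjusted p = 0.00019). The receptor Il1rl1 itself did not pass the low-count filter, and Myd88, Irak1 and Irak4 were not called. Around Car2, Car14 was higher at 402 ± 86.0 and 10.3 ± 9.999 CPM (edgeR adjusted p = 0.00037) and Car4 was lower at 0.036 ± 0.034 and 926 ± 220 CPM (adjusted p = 5.9e-08). Car4 was almost absent from oligodendrocyte wells, so its test had almost no counts on that side and its call adds no support. Around Hapln2, 4 of 5 tested link proteins and lecticans were lower and 0 were higher, beside 19.7% and 13.5% of 12181 genes. Hapln1 stood at 4.23 ± 11.9 CPM in oligodendrocyte wells and 99.9 ± 41.0 CPM in other wells, and Bcan at 29.1 ± 67.1 and 1438 ± 363 CPM. Ncan stood at 3.32 ± 3.37 and 272 ± 121 CPM, and Vcan at 0.85 ± 2.37 and 18.7 ± 21.9 CPM. Around Anxa5, 4 of 5 tested annexins were lower, beside 19.7% of all genes tested. Anxa2 stood at 5.88 ± 5.05 and 185 ± 96.2 CPM, and Anxa3 at 0.52 ± 1.41 and 141 ± 53.8 CPM. Anxa6 stood at 7.67 ± 13.2 and 144 ± 47.1 CPM, and Anxa7 at 6.75 ± 5.25 and 127 ± 75.2 CPM. Anxa3 and, around Hapln2, Vcan had few counts in oligodendrocyte wells. Of the 7 kallikreins and protease receptors, the thrombin receptor gene F2r was the 1 tested, at 0.0038 ± 0.011 CPM in oligodendrocyte wells and 46.4 ± 31.3 CPM in other wells. F2r too had almost no counts in oligodendrocyte wells. None of the 5 genes of the prostaglandin D2 pathway beside Ptgds and none of the 4 lipocalins beside Ptgds and Apod passed the low-count filter. Of 9 tested immediate early genes, Arc was higher, at 285 ± 132 and 7.62 ± 18.0 CPM (edgeR adjusted p = 0.0022). Another 5 were lower, among them Ier2 at 32.7 ± 46.8 and 303 ± 147 CPM and Junb at 116 ± 131 and 556 ± 477 CPM. Over all genes tested, 13.5% were called higher and 19.7% lower.

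Antagomir and scrambled mice were then compared, to ask whether blocking miR-132 changed these genes. In oligodendrocyte wells edgeR called 0 of 7 members (0% of 10768 genes called; 211 had an unadjusted p under 0.05, and DESeq2 called 13 genes, none of them a member). For every member the groups overlapped, as for all but 2.19% of genes.

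Ptgds in oligodendrocyte wells was 20872, 23992, 30436 and 43346 CPM in antagomir mice and 25620, 29903, 30509 and 32677 CPM in scrambled mice, with a log2 difference of -0.02 and a 95% interval of -0.54 to 0.50. Il33 was 1025, 1296, 1511 and 1581 CPM in antagomir mice and 1299, 1305, 1546 and 1625 CPM in scrambled mice (-0.12, interval -0.49 to 0.26). Car2 was 4868, 4942, 5720 and 6930 CPM in antagomir mice and 4938, 5198, 5408 and 5888 CPM in scrambled mice (0.05, interval -0.30 to 0.40). Antagomir values spread more widely than scrambled ones for Ptgds, Il33 and Car2. The intervals leave room for changes of at most about 0.5 in log2 for these 3 genes.

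Apod was 4382, 4966, 6622 and 8154 CPM in antagomir mice and 4600, 5630, 6826 and 7614 CPM in scrambled mice (-0.05, interval -0.51 to 0.41). Hapln2 was 464, 643, 881 and 913 CPM in antagomir mice and 448, 522, 776 and 815 CPM in scrambled mice (0.15, interval -0.49 to 0.80). Within each treatment the higher and lower mice of these 2 genes followed the sequencing pool.

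The rare members were measured less firmly. Anxa5 was 39.8, 69.8, 83.3 and 91.1 CPM in antagomir mice and 25.4, 28.5, 32.2 and 104 CPM in scrambled mice (0.53, interval -0.61 to 1.67), with scrambled mouse 1 far above the other 3. Klk6 was 13.9, 24.1, 43.7 and 45.8 CPM in antagomir mice and 0, 15.7, 40.4 and 72.0 CPM in scrambled mice (0.00, interval -2.69 to 2.69). Klk6 was present in 14 of 138 oligodendrocyte wells of antagomir mice (10.1%, interval 6.14 to 16.3%) and in 7 of 160 of scrambled mice (4.38%, interval 2.14 to 8.75%); the well with the highest Klk6 level, 4009 CPM, was in mouse 3 (scrambled).

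In other wells 0 of 5 tested members were called (0% of 13799 genes; 237 had an unadjusted p under 0.05 and DESeq2 called 6 genes). Ptgds had the largest difference of the 5, at 1.84 with an interval of -1.44 to 5.12; it was 50.9, 61.6, 250 and 6296 CPM in antagomir mice and 28.0, 273, 314 and 1227 CPM in scrambled mice. Antagomir mouse 4 had 3 of the 12 fibroblast-marker wells, and without such wells its Ptgds level was 51.1 CPM and the log2 difference 0.28. Within pools the Ptgds difference was 3.50 in L6 and -3.55 in L5, and with pool as a covariate it was -0.02.

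Apod in other wells was higher in the antagomir mouse of each of the 4 pairs that shared a sort day and pool (5.71% of genes were higher in every pair). It was 1895 CPM in antagomir mouse 2 and 706 CPM in scrambled mouse 1, 2541 in antagomir mouse 4 and 2195 in scrambled mouse 3, 389 in antagomir mouse 6 and 49.1 in scrambled mouse 5, and 1745 in antagomir mouse 8 and 1429 in scrambled mouse 7. The widest gaps in proportion were those of L5. Its log2 difference was 0.60 ± 0.84 (SE, edgeR adjusted p = 1.00), and 1.18 with sort day and pool as a replicate block, not called either. Without fibroblast-marker wells Apod was 115 and 88.0, 94.9 and 54.2, 60.7 and 49.1, and 78.2 and 4.19 CPM in the antagomir and scrambled mice of the same pairs. Car2 was lower in the antagomir mouse of each pair (5.2% of genes were), by small amounts: its log2 difference was -0.08 with an interval of -0.70 to 0.53, and without fibroblast-marker wells mouse 4 (antagomir) stood above mouse 3 (scrambled).

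The difference in response between oligodendrocyte and other wells, tested with mouse as a block, was called for 0 of 6 members (0% of 12181 genes; 341 had an unadjusted p under 0.05), and the difference in response between pools for 0 of 7 in oligodendrocyte wells (0% of 10768 genes; 529 under 0.05) and 0 of 5 in other wells (0% of 13799; 528 under 0.05). None of the 9 gene lists had a member called between treatments in either kind of well.

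The 2 sequencing pools were compared in the same way. In oligodendrocyte wells 49 of 10768 genes were called between L6 and L5, which is 0.455% (0.214% higher and 0.241% lower in L6). Of the members 0 were called, and 2 had values that did not overlap: Hapln2 was lower in L6 (3.11% of genes were lower without overlap) and Apod higher (6.29% higher without overlap). Hapln2 was 448, 464, 522 and 643 CPM in L6 mice and 776, 815, 881 and 913 CPM in L5 mice. Every L6 mouse lay below every L5 mouse, with a log2 difference of -0.79 ± 0.14 (SE) and an edgeR adjusted p of 0.054, over the alternatives between 1.0e-06 and 0.21. Hapln2 had 10 or more counts in 79.2, 83.7, 86.7 and 93.0% of oligodendrocyte wells in L6 mice and in 90.2, 90.6, 92.3 and 96.8% in L5 mice. Apod was 6622, 6826, 7614 and 8154 CPM in L6 mice and 4382, 4600, 4966 and 5630 CPM in L5 mice, a log2 difference of 0.49 ± 0.12 (SE, edgeR adjusted p = 0.13, over the alternatives between 0.00076 and 0.35). DESeq2 called both genes.

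The other members overlapped between the pools. Ptgds averaged 26859 ± 4601 CPM in L6 mice and 32479 ± 8099 CPM in L5 mice (SD), Il33 1506 ± 142 and 1292 ± 213 CPM, Car2 5675 ± 949 and 5298 ± 358 CPM, Anxa5 45.9 ± 25.3 and 72.7 ± 34.6 CPM, and Klk6 31.4 ± 27.4 and 32.5 ± 21.8 CPM. Their edgeR adjusted p-values ran from 0.55 for Ptgds to 0.99 for Car2. Among the lists, Gpr37 was lower in L6 at 1186 ± 49.3 and 1895 ± 164 CPM (edgeR adjusted p = 0.031), as was Arc at 174 ± 27.2 and 397 ± 84.2 CPM (adjusted p = 0.038).

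Other measures moved with the pool. In oligodendrocyte wells Malat1, a nuclear RNA, averaged 5394 ± 331 CPM in L6 mice and 1252 ± 177 CPM in L5 mice (log2 difference 2.02, edgeR adjusted p = 0.00014), genes of the mitochondrial genome took 3.66 ± 0.23% and 1.17 ± 0.12% of counts, and the median total per well was 975959 and 763881 counts. Malat1 was named after its value had been seen. Its part and that of the mitochondrial share in the Hapln2 and Apod values were not tested. In other wells 0 of 5 tested members were called between the pools, beside 0.0145% of 13799 genes, and Malat1 again was higher in L6 (11758 ± 1594 and 2531 ± 470 CPM, edgeR adjusted p = 0.028).

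**Figure D5:**
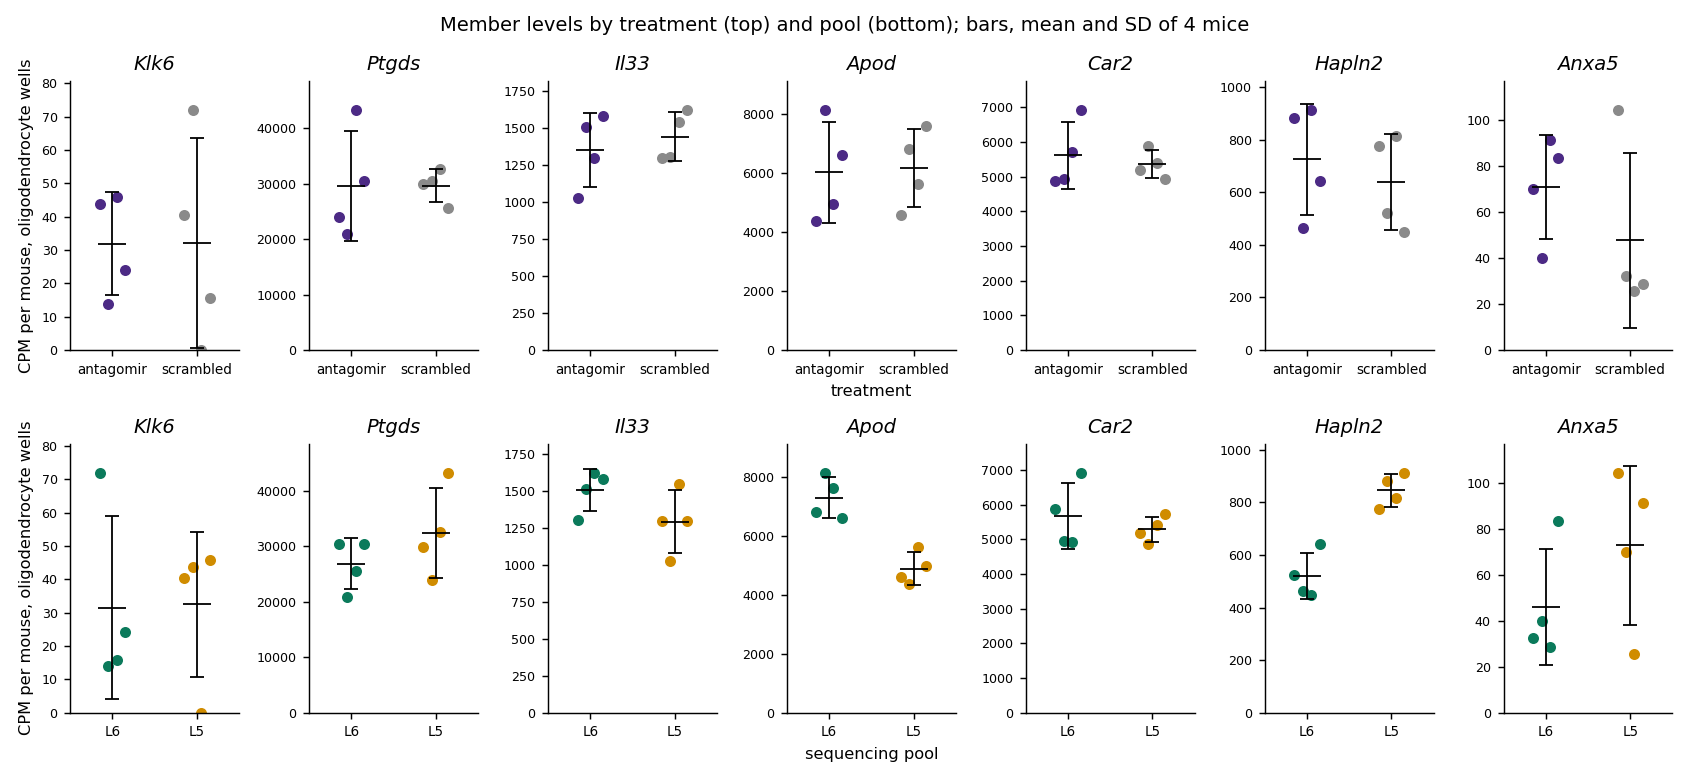
Level of each member in oligodendrocyte wells, CPM summed per mouse on linear axes that start at 0, by treatment (top row, antagomir left and scrambled right) and by sequencing pool (bottom row, L6 left and L5 right); points are mice, and bars are the mean and SD of 4 mice. The treatments overlap for all 7 members, and Hapln2 (448 to 643 CPM in L6, 776 to 913 CPM in L5) and Apod (6622 to 8154 and 4382 to 5630 CPM) separate by pool.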

How the data were processed

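Single nestin-GFP-positive cells of the dentate gyrus were sorted into wells and copied by Smart-seq2, per the labels' protocols. The authors deposited unnormalised counts, one per gene symbol in every well, and a table that gives each well's mouse, treatment, pool and sort day. Tools named in the submitters' processing notes are FastQC, STAR 2.5.2, Subread with featureCounts 1.5.1 and Seurat 2.3.1, with build mm10; neither the strand setting nor the annotation release is stated in the labels or headers. The 2 antagomir and 2 scrambled deposited samples could not be tied to the 8 mice of the well table, so wells were grouped by mouse and by the treatment in that table. P-values measure the spread between these mice.

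Wells with 500 to 6000 detected genes were kept; no doublet caller was run. Counts were summed per mouse within oligodendrocyte or other wells and tested with edgeR 4.0.16 in R 4.3.3 (TMM scaling, filterByExpr, quasi-likelihood test, Benjamini-Hochberg over all genes tested, threshold 0.05). Class and wells with or without a member were compared with mouse as a block. A well held a gene at 10 or more counts. CPM scales a count to the total of the same well or, per mouse, of the same summed class of wells; log2 values of wells used a pseudocount of 1. A share of 0 is bounded by 3 counts, and intervals are 95% Wilson intervals. Exonic lengths come from GENCODE M21.

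Alternatives were RLE scaling, no low-count filter, DESeq2 1.42.0, 4 of 5 markers, no limit on detected genes, thresholds of 1 and 100 counts, thinning to 200000 counts, leaving out each mouse, pool as a covariate or within pools, and a replicate block of sort day and pool. The comparisons without fibroblast-marker wells, shares without oligodendrocyte wells that carry markers of another class, comparisons with at least 2 wells a side, and the tests of differences in response were added after the data had been seen. Mice of 1 sort day and pool pair by the well table; in oligodendrocyte wells the deviations from the group means of the 4 pairs correlated at 0.10 to 0.22 over 5681 genes, and in other wells at -0.018 to 0.28. Genes most like a member were at most 3 with the largest mean rho of at least 0.3 in size and 1 sign in every mouse, present in 10% of oligodendrocyte wells; other named genes come from the lists, up to 6 called genes of each, by p. One result that the rule would name is not reported here. The members and lists were chosen with earlier results of these data known.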

Additional observations from a re-analysis of the deposited data

Results flagged for a closer look

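Of 49 groups of 4 mice, 7 held a mouse far from the other 3. The nominal rate of 1 in 20 groups assumes values without ties and independent groups. In the Klk6 level of other wells and the Ptgds, Apod and Car2 shares of oligodendrocyte wells, the other 3 mice were tied. Any single deviation is flagged there. Levels and shares of 1 gene are also related, so the 7 are not set against that rate. In antagomir mice, mouse 4 had 6296 CPM of Ptgds in other wells, against 50.9 to 250 CPM in the other 3, and Ptgds at 10 or more counts in 16.7% of other wells, against 5.88 to 7.32%; it held 3 fibroblast-marker wells. Mouse 2 had Ptgds in 94.9% of oligodendrocyte wells, the other 3 antagomir mice in 100%. In scrambled mice, mouse 1 had 104 CPM of Anxa5 in oligodendrocyte wells, against 25.4 to 32.2 CPM in the other 3. Mouse 3 had Apod in 97.8% and Car2 in 97.8% of oligodendrocyte wells, the other 3 in 100%, which is 1 well with Ptgds alone of the 7 members. Mouse 7 had 0.035 CPM of Klk6 in other wells, a single count, and the other 3 had 0.

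The 16 wells left out for more than 6000 detected genes all carried oligodendrocyte markers. Ptgds, Il33, Apod, Car2, Hapln2 and Anxa5 each had 10 or more counts in 100% of them (Wilson interval from 80.6%), and Klk6 in 1 of 16 (6.25%). Anxa5 was thus present in 16 of 16 of these wells and in 55 of 298 kept oligodendrocyte wells.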

How the results depend on the processing

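Of the alternative values, 919 stayed the same, 56 moved, 51 reversed, 12 passed the threshold newly and 7 lost it. For a difference, staying the same meant keeping its direction and side of the threshold. Counts of calls and shares have no direction, and for them it meant a value near the main one. The 6 class calls held in every alternative run, and leaving out each mouse gave 6 to 7 members called. The added member was Klk6, tested when mouse 5 was left out, with 1 count in all other wells. Its call and that of Hapln2, with 12 counts there, add no support. For the other higher members, the split by myelin genes had largely built in the direction. The cause of the changes below was not tested.

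Antagomir minus scrambled in oligodendrocyte wells, log2: Klk6 was -0.0061 without the filter, -0.033 with 4 of 5 markers, -0.029 with no limit on genes, -0.055 with pool as covariate and -1.18 within L6; Ptgds was 0.057 and Car2 -0.049 within L5; Il33 was 0.090 and Apod 0.042 within L6. DESeq2 called 13 genes there and 6 in other wells, where Ptgds was -0.015 with pool as covariate and -3.55 within L5, and Anxa5 0.22 within L5. Leaving out each mouse gave in oligodendrocyte wells -0.41 to 0.72 for Klk6, -0.26 to 0.13 for Ptgds, -0.21 to 0.065 for Apod and -0.061 to 0.12 for Car2, and in other wells -1.95 to 3.04 for Ptgds, -0.21 to 0.080 for Car2 and -0.18 to 0.12 for Anxa5. The replicate block of sort day and pool called 0 genes in both kinds of wells, gave Klk6 0.66 in oligodendrocyte wells and changed no call.

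L6 minus L5 in oligodendrocyte wells: members called were 1 with RLE scaling, 3 without the filter and 2 with DESeq2, genes called 255 without the filter and 484 with DESeq2, and Car2 was -0.00055 with RLE scaling and -0.00053 with DESeq2. In other wells genes called were 187 without the filter, 285 with DESeq2 and 0 with no limit on genes, members called 2 without the filter, and Apod -0.68 without fibroblast-marker wells. Leaving out each mouse called 6 to 23 genes in oligodendrocyte and 0 to 8 in other wells, with Klk6 -0.96 to 0.30, Car2 -0.12 to 0.086 and, in other wells, Anxa5 -0.26 to 0.11.

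With minus without a member: for Anxa5, Apod was -0.018 at 100 counts. For Klk6, genes called were 1 without the filter and 1 when thinned, members called 1 when thinned, and Car2 was 0.13 with RLE scaling; leaving out each mouse called 0 to 1 genes and 0 to 1 members, with Anxa5 -0.23 to 1.23. For Hapln2, genes called were 0 with RLE scaling, 13 without the filter, 0 at 100 counts and 7 when thinned, members called 0, 2, 0 and 2, while with at least 5 wells a side 0 genes and 0 members were called at 100 counts and when thinned; Il33 was -0.10 with RLE scaling, and Ptgds 0.19 without the filter and 0.086 when thinned. Leaving out each mouse called 0 to 4 genes and 0 to 1 members, with Ptgds -0.13 to 0.14.

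At 1 or more counts the mean share of other wells was 0.284% for Klk6, 49.96% for Ptgds, 26.4% for Apod, 47.6% for Car2 and 1.57% for Hapln2. At 100 or more counts Hapln2 was in 80.9% of oligodendrocyte wells.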
